A study of Mus musculus with 8 samples.

Results

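The hydrolases of the intestinal brush border were compared between genotypes in the ileum of mice given irinotecan. Rows of the deposited table were taken by symbol for Sis, Lct, Mgam, Treh, Anpep, Dpp4, Enpep, Mep1a, Mep1b and Alpi, and each symbol matched 1 row, giving 10 of the 55487 genes listed. RNA from the ileum was sequenced in bulk after poly(A) selection in 8 libraries. Of these, 4 came from wild-type mice (genotype Gsdme+/+, called WT) and 4 from Gsdme-deficient mice (genotype Gsdme-/-, called Gsdme_KO), and all 8 mice had received irinotecan, a topoisomerase I inhibitor that injures the gut. Strain, sex, age, dose, time after dosing and how the Gsdme allele was made were not given in the sources used here. Untreated mice were not analysed here, so that no value below describes a response to the drug. The titles describe the samples of each genotype as separate mice. Headers of the table name 4 columns KO8, KO7, KO5 and KO4 and the other 4 WT8, WT7, WT5 and WT3.

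These enzymes sit on the microvilli of mature absorptive enterocytes, which are shed from the villus and replaced from the crypt. They finish the digestion of food at the cell surface: the disaccharidases split short sugars into monosaccharides, the peptidases trim peptides, and the sugars, amino acids and small peptides are then taken up by neighbouring transporters. Their genes are switched on as cells leave the crypt, and transcription factors of the HNF4, CDX and GATA families are known to drive them. Loss of disaccharidases from an injured mucosa is a textbook cause of sugar malabsorption and osmotic diarrhoea.

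For 9 of the 10 genes the libraries KO4 and KO5 lay below all others, as they did for 13.5% of all genes tested. The sequence before the transcript starts is shown first, and a link between it and those values was not tested. RefSeq windows (GRCm38.p6) of 250 bases before to 50 bases after a transcript start were matched for 9 of the 10. Short motifs of the TATA box and of the HNF4, CDX and GATA families were searched on both strands, and their letters are given after the windows. Some matches overlap, as the TATA box does with its own reverse in Sis. Matches are in capitals in these 6 windows, chosen to show each motif and the 1 window of the 9 with none.
Sis, chr3:72967814-72968113, minus strand: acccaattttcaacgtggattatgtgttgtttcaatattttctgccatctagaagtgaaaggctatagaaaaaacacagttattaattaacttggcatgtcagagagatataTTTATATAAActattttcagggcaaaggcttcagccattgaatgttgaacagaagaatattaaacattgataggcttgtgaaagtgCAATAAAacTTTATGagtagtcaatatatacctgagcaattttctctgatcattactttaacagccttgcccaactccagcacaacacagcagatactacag
Mgam, chr6:40628581-40628880, plus strand: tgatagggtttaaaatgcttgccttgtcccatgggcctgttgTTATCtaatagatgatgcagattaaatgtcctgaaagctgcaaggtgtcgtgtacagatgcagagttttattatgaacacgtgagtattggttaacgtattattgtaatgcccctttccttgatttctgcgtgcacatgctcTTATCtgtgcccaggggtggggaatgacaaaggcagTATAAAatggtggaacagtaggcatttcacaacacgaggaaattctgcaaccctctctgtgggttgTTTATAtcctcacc
Lct, chr1:128328269-128328568, minus strand: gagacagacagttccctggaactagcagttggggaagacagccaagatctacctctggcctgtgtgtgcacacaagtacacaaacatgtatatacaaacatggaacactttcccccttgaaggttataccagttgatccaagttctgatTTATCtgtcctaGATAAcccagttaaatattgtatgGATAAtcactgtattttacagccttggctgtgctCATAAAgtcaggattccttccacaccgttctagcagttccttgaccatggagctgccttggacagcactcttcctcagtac
Treh, chr9:44672983-44673282, plus strand: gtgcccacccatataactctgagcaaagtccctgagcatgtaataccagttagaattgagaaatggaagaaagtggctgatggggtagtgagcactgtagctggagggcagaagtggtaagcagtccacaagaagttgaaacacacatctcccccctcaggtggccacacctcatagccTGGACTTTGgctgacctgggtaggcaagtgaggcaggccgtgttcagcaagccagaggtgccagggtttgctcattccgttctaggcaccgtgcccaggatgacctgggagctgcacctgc
Alpi, chr1:87101557-87101856, minus strand: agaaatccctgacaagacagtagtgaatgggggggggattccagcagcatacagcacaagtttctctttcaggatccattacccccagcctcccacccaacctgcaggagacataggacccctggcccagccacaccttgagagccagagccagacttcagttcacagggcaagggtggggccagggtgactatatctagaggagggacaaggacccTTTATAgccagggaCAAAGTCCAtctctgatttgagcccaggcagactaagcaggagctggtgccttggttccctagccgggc
Anpep, chr7:79848161-79848460, minus strand: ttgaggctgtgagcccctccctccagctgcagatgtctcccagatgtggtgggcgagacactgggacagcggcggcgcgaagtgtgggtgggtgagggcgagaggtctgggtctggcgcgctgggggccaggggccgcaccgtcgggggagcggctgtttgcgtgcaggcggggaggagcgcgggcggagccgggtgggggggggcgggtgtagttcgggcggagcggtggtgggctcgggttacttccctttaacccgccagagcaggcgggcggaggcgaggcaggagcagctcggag

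No searched motif was present in all 9 windows. The Sis window held a CDX pair that begins 52 and 43 bases before the start, on opposite strands. In Lct, a CDX match began 31 bases before the start and GATA matches began 101, 89 and 65 bases before it. The HNF4 letters CAAAGTCCA were found in Treh and Alpi, and in 0.475% of all 32851 windows of the RefSeq table. TATA box letters, TATAAA, were found on either strand in 5 of the 9 (Sis, Mgam, Dpp4, Enpep and Alpi) and in 13.6% of all windows. On the gene's strand they began 30 bases before the start in Mgam, 134 in Sis and 227 in Dpp4. Enpep and Alpi had them on the other strand only.

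GATA letters, searched as GATAA, were present in 5 of the 9 (Lct, Mgam, Dpp4, Enpep and Mep1a) and in 25.4% of all windows. The CDX letters, searched as TTTATG or with a further T before the G, were present in 3 (Sis, Lct and Mep1a) and in 15.6%. Windows differed widely in composition, from 34.0% G and C in Sis to 72.3% in Anpep, against a median of 52.7% over all windows. The transcript start of the Anpep window lies 5959 bases before the nearest annotated start codon, whereas in Lct the distance is 15 bases and in Mep1a 16. Aminopeptidase N is known to be transcribed from separate promoters in epithelial and myeloid cells, and which start was used in these samples was not measured. Matches are letters in a window and not evidence of binding.

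**Figure D1:**
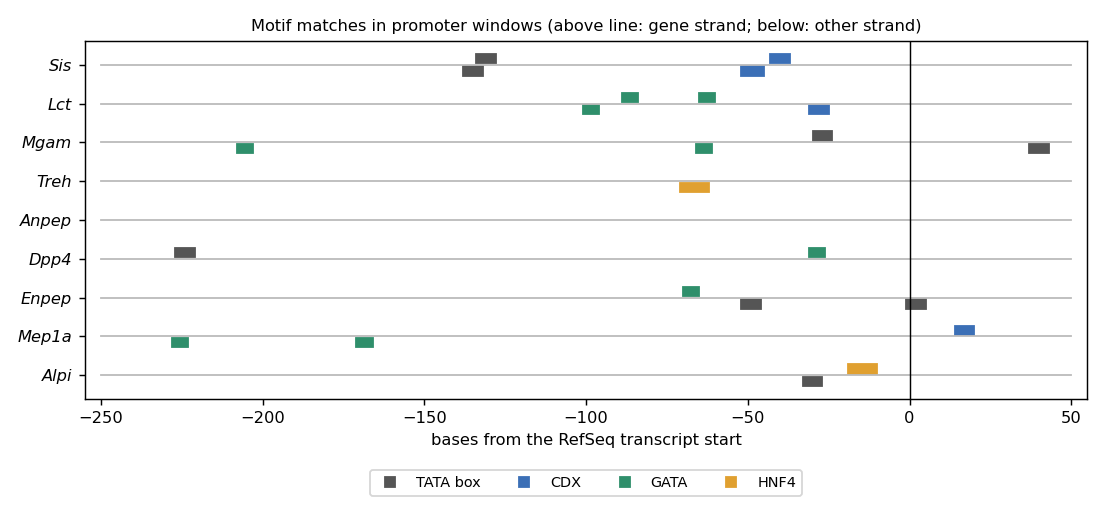
Motif matches in the promoter windows of 9 of the 10 genes; the x axis is the distance in bases from the RefSeq transcript start, boxes above a line lie on the gene's strand and boxes below it on the other. The Sis CDX pair lies 52 and 43 bases before the start, and the Anpep line is empty.

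Values are normalized counts, meaning reads in a gene divided by 1 size factor per library, unless stated. Recovered reads per library ran from 15617407 to 23437343. The genotype labels were checked on the targeted gene, and Gsdme had 2169 to 3376 normalized counts in WT and 634, 464, 187 and 113 in KO7, KO8, KO5 and KO4 (log2 difference -3.32, exact permutation p = 0.0286, two-sided, the smallest that 70 assignments can give). Across all genes limma did not call it (adjusted p = 0.786). KO4 and KO5 stand apart from the other 6 libraries over many genes. They held both the lowest values for 13.5% of the 16352 genes tested and both the highest for 14.1%. Markers of the labelled tissue were present, with Fabp6, the ileal bile acid binding protein, at 14739 to 72985, Slc10a2, the ileal bile acid transporter, at 8955 in KO5, 7983 in KO4 and 17117 to 25319 in the remaining libraries, and the duodenal enteropeptidase gene Tmprss15 listed at 0 in all 8 libraries.

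No brush border hydrolase of the 10 was called between the genotypes (0 of 10, at a Benjamini-Hochberg adjusted p under 0.05 over all genes by limma). Among all 16352 genes tested, 0% were called lower and 0.00612% higher. All 10 had a lower mean in Gsdme_KO, from 52.6% of the WT mean for Lct to 84.9% for Sis, and the median log2 fold change was -0.77 against 0.00 over all genes tested. The percentages compare mean normalized counts, whereas the limma log2 fold changes compare mean log2 levels. edgeR and DESeq2 also called 0 of the 10, with 0% and 0.00612% of all genes called lower. None of the 10 had an unadjusted p under 0.05 by limma, edgeR or DESeq2, where 1.77%, 1.58% and 1.82% of all genes were lower at that level. In bulk RNA, fewer mature enterocytes and less hydrolase RNA per enterocyte cannot be told apart. The genotypes overlapped for each of the 10, whereas 1.19% of all genes had 4 Gsdme_KO libraries below 4 WT libraries. The lower means came from KO4 and KO5. Both lay below every other library for 9 of the 10 (13.5% of all genes), Alpi being the exception, and KO7 lay above the WT mean for all 10. Taken singly, KO4 was below all WT libraries for 10 of 10 (30.4% of all genes) and KO5 for 9 of 10 (23% of all genes). KO4 was under 50% of the WT mean for 9 of the 10, against 7.07% of all genes, and KO5 for 6 of the 10, against 3.35%.

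**Figure D2:**
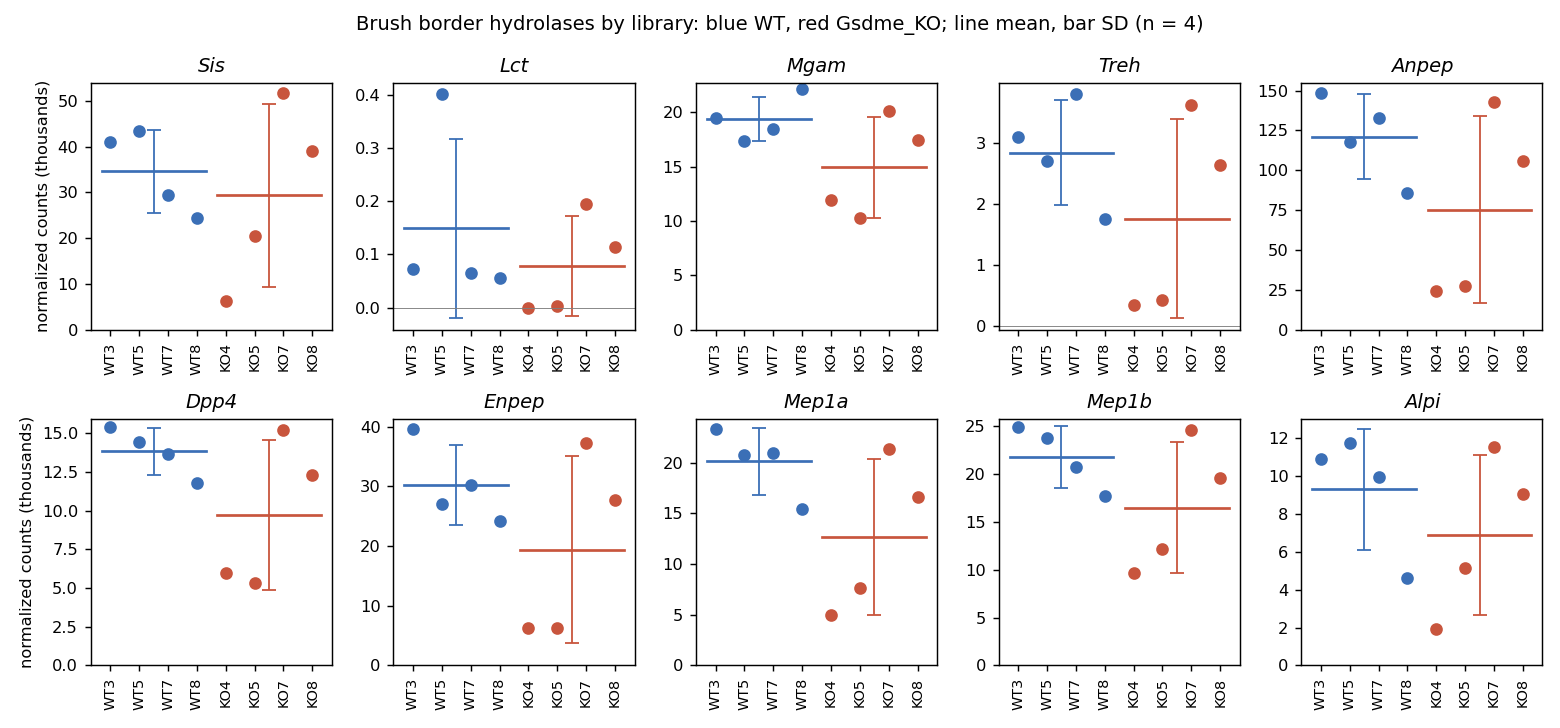
Normalized counts (y axes differ) of the 10 genes in each library, blue for WT and red for Gsdme_KO, with lines at the mean and bars of 1 SD (n = 4). KO4 and KO5 lie low, while KO7 and KO8 lie among the WT libraries for most genes.

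Sis encodes sucrase-isomaltase, the enzyme that splits sucrose and the branch points of starch fragments (ENSMUSG00000027790, chromosome 3, 72888557 to 72967863, minus strand, GRCm38). It had 41049 normalized counts in WT3, 43476 in WT5, 29510 in WT7 and 24416 in WT8, and 51743 in KO7, 39056 in KO8, 20431 in KO5 and 6275 in KO4. Sis averaged 34613 ± 9129 in WT and 29376 ± 20064 in Gsdme_KO (SD, n = 4). KO4 stood far below every other library, KO5 just below WT8, and KO7 was the highest of all 8. Its log2 fold change was -0.58 (SE 0.591, 95% interval -1.92 to 0.77, limma adjusted p = 0.864). Without KO4 alone it was 0.04, so that its sign rested on that library.

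Mgam encodes maltase-glucoamylase, the paralog of sucrase-isomaltase that releases glucose from the ends of starch chains (ENSMUSG00000068587, chromosome 6, 40628831 to 40769123, plus strand). It had 19505 in WT3, 17344 in WT5, 18456 in WT7 and 22133 in WT8, and 20156 in KO7, 17471 in KO8, 10250 in KO5 and 11922 in KO4. Mgam averaged 19359 ± 2049 in WT and 14949 ± 4645 in Gsdme_KO (SD, n = 4). KO4 and KO5 were the lowest, as for Sis, but at 61.6% and 52.9% of the WT mean, where Sis had 18.1% and 59.0%. Mgam was the only one of the 10 for which WT8 was not the lowest WT library. The log2 fold change of Mgam, -0.42 (SE 0.216, 95% interval -0.91 to 0.07, limma adjusted p = 0.849), was the closest to 0 of the 10 in the main limma fit. Sis was closer by edgeR (-0.23 against -0.37), by DESeq2 (-0.24 against -0.37) and by limma with array weights (-0.02 against -0.23). Mgam2-ps, listed as a related copy, had 1228 ± 210 in WT and 1010 ± 147 in Gsdme_KO (SD, n = 4), and reads shared between the copies are uncertain.

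Treh encodes trehalase, which splits the fungal and insect sugar trehalose (ENSMUSG00000032098, chromosome 9, 44673233 to 44686305, plus strand). The WT libraries held 3093 in WT3, 2709 in WT5, 3806 in WT7 and 1743 in WT8, and the Gsdme_KO libraries 3620 in KO7, 2638 in KO8, 424 in KO5 and 341 in KO4. Treh averaged 2838 ± 860 in WT and 1755 ± 1636 in Gsdme_KO (SD, n = 4). KO4 and KO5 were at 12.02% and 14.9% of the WT mean, whereas KO7 and KO8 were at 128% and 92.9%. Between genotypes the log2 fold change was -1.33 (SE 0.756, 95% interval -3.05 to 0.39, limma adjusted p = 0.849). The antisense gene Phldb1 overlaps it, with 315 to 494 normalized counts, so some Treh reads are uncertain where counting ignored strand.

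Lct encodes lactase, the milk sugar enzyme that declines after weaning and towards the distal small intestine (ENSMUSG00000026354, chromosome 1, 128284756 to 128328318, minus strand). Its level was low, with 72.6 normalized counts in WT3, 403 in WT5, 65.3 in WT7 and 55.5 in WT8, and 195 in KO7, 115 in KO8, 3.75 in KO5 and 0 in KO4. Lct averaged 149 ± 169 in WT and 78.4 ± 94.2 in Gsdme_KO (SD, n = 4). These rest on 5 recovered reads in KO5 and 0 in KO4, where the remaining libraries had 59 to 338, and the 3-read limit in KO4 is 2.77 normalized counts. KO7 and KO8 exceeded 3 of the 4 WT libraries. The log2 fold change of -2.50 (SE 1.62, 95% interval -6.18 to 1.18, limma adjusted p = 0.849) depends on the pseudocount at so few reads, being -1.75 with a pseudocount of 5. By edgeR it was -0.94, but edgeR also lay closer to 0 for genes with many reads, such as Sis (-0.23 against -0.58). Without KO4 the limma value of Lct was -1.11. Proximal small intestine markers summed to 17442 in WT5, with 5404 to 11441 in the other WT libraries. Distal ones summed to 130695 in WT5, with 56480 to 130335 in the other WT libraries. The transcription factor gene Gata4 had 108 in WT5 against 15 to 24 in the other WT libraries, and Fabp1, a liver-type fatty acid binding protein, had 1580 against 223 to 637. KO5 had the highest proximal sum of all 8 libraries (19202), with 118 for Gata4, 354 for Fabp1 and 3.75 for Lct. The part of gut position in the Lct values was not tested.

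Anpep encodes aminopeptidase N, the zinc enzyme that takes neutral residues off the N-terminus of peptides (ENSMUSG00000039062, chromosome 7, 79821803 to 79861059, minus strand). Per library it had 148393 in WT3, 117459 in WT5, 132840 in WT7, 85851 in WT8, 143098 in KO7, 105667 in KO8, 27493 in KO5 and 24511 in KO4. Anpep averaged 121136 ± 26699 in WT and 75192 ± 58832 in Gsdme_KO (SD, n = 4). KO4 and KO5 were close to each other, at 20.2% and 22.7% of the WT mean, and the lowest of the other 6, WT8, was at 70.9%. The log2 fold change was -1.07 (SE 0.578, 95% interval -2.39 to 0.24, limma adjusted p = 0.849). The overlapping same-strand gene Gm44974 had 11.98 to 142 normalized counts, low beside Anpep, and reads shared by the 2 genes are uncertain.

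Enpep encodes aminopeptidase A, a relative of aminopeptidase N that removes acidic residues and cleaves angiotensin (ENSMUSG00000028024, chromosome 3, 129269175 to 129332720, minus strand). It had 39570 in WT3, 27038 in WT5, 30174 in WT7 and 24135 in WT8, against 37322 in KO7, 27684 in KO8, 6207 in KO5 and 6297 in KO4. Enpep averaged 30229 ± 6698 in WT and 19378 ± 15659 in Gsdme_KO (SD, n = 4). KO4 and KO5 again lay together, at 20.8% and 20.5% of the WT mean, and the rest overlapped. Its log2 fold change was -1.07 (SE 0.590, 95% interval -2.41 to 0.27, limma adjusted p = 0.849).

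Dpp4 encodes dipeptidyl peptidase 4, which cuts dipeptides ending in proline or alanine and inactivates incretin hormones (ENSMUSG00000035000, chromosome 2, 62330073 to 62412231, minus strand). Its values were 15432 in WT3, 14438 in WT5, 13680 in WT7, 11786 in WT8, 15239 in KO7, 12315 in KO8, 5306 in KO5 and 5969 in KO4. Dpp4 averaged 13834 ± 1542 in WT and 9707 ± 4856 in Gsdme_KO (SD, n = 4). The deficit was milder than for the aminopeptidases, with KO4 and KO5 at 43.1% and 38.4% of the WT mean. Between genotypes the log2 fold change was -0.65 (SE 0.328, 95% interval -1.39 to 0.10, limma adjusted p = 0.849). Dpp4 is also expressed by T cells, whose markers were high in the same libraries: Cd3e had 136 in KO5 and 183 in KO4, with 51 to 90 in the remaining libraries. The part of T cell RNA in the Dpp4 values was not tested.

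The meprins are metalloproteases of the astacin family that process mucus and peptides, meprin alpha (Mep1a) being held at the membrane through meprin beta (Mep1b). Mep1a (ENSMUSG00000023914, chromosome 17, 43474324 to 43502812, minus strand) had 23310 in WT3, 20771 in WT5, 20892 in WT7, 15468 in WT8, 21371 in KO7, 16620 in KO8, 7611 in KO5 and 5013 in KO4. Mep1a averaged 20110 ± 3309 in WT and 12654 ± 7649 in Gsdme_KO (SD, n = 4). Mep1b (ENSMUSG00000024313, chromosome 18, 21061923 to 21100199, plus strand) had 24884 in WT3, 23749 in WT5, 20688 in WT7, 17639 in WT8, 24538 in KO7, 19596 in KO8, 12129 in KO5 and 9624 in KO4. Mep1b averaged 21740 ± 3258 in WT and 16472 ± 6846 in Gsdme_KO (SD, n = 4). Both subunits were lowest in KO4 and next lowest in KO5, and Mep1a was the lower of the pair there, at 24.9% and 37.8% of its WT mean against 44.3% and 55.8%. Mep1a had the smallest unadjusted p of the 10 (0.0679), with a log2 fold change of -0.88 (SE 0.424, 95% interval -1.84 to 0.08, limma adjusted p = 0.849). For Mep1b the log2 fold change was -0.49 (SE 0.286, 95% interval -1.13 to 0.16, limma adjusted p = 0.849).

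Alpi encodes intestinal alkaline phosphatase, which removes phosphate from dietary nucleotides and bacterial lipopolysaccharide (ENSMUSG00000079440, chromosome 1, 87098002 to 87101606, minus strand). It had 10876 in WT3, 11746 in WT5, 9925 in WT7 and 4605 in WT8, and 11501 in KO7, 9029 in KO8, 5124 in KO5 and 1913 in KO4. Alpi averaged 9288 ± 3210 in WT and 6892 ± 4232 in Gsdme_KO (SD, n = 4). KO5 lay above WT8, so KO4 was the only Gsdme_KO library below all WT libraries. The log2 fold change was -0.63 (SE 0.546, 95% interval -1.87 to 0.61, limma adjusted p = 0.849), and without KO4 it was -0.11. Other alkaline phosphatase genes were low, with Akp3 between 0 and 23.2 and Alppl2 between 3.69 and 39.0. Alpl, the tissue-nonspecific form, went the other way, with 113 in KO5 and 249 in KO4, where the other 6 libraries had 38 to 96 (log2 fold change 0.38, limma adjusted p = 0.901).

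Levels were set beside each other per kilobase of exon in WT (normalized counts per kb, SD, n = 4). Anpep led at 29295 ± 6457, above every other gene of the 10 in all 4 WT libraries. Mep1b followed at 8282 ± 1241, then Enpep at 6424 ± 1423, Mep1a at 5826 ± 959, Sis at 4637 ± 1223, Alpi at 3974 ± 1373, Mgam at 2224 ± 235 and Dpp4 at 2189 ± 244. From Mep1b down to Dpp4, the WT ranges of each neighbouring pair overlapped. Treh came next at 1386 ± 420, its highest WT library (1858) just under the lowest of Dpp4 (1865). Lct was last at 23.3 ± 26.4.

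Ratios within a library remove the scaling of that library, and the ratios per kb given here are descriptions, chosen after values were seen. Anpep to Enpep kept to a narrow band, from 4.05 to 5.01 in WT and at 4.36 in KO7, 4.34 in KO8, 5.04 in KO5 and 4.43 in KO4, so both aminopeptidases were low in KO4 and KO5 by like factors. Mep1a to Mep1b was 0.665 to 0.768 in WT, 0.662 in KO7, 0.645 in KO8, 0.477 in KO5 and 0.396 in KO4. Sis to Mgam varied more than the Anpep to Enpep and Mep1a to Mep1b ratios. It ran from 1.29 in WT8 to 2.92 in WT5, with 2.99 in KO7, 2.61 in KO8, 2.32 in KO5 and 0.614 in KO4. Anpep was also set against Vil1, which encodes villin, the actin bundler of the microvillus core. That ratio was 2.02 to 2.47 in WT, 2.26 in KO7, 2.13 in KO8, 0.737 in KO5 and 0.655 in KO4, so Anpep was low relative to Vil1 in the last 2. Other hydrolases followed to differing degrees. Dpp4 to Vil1 was 0.163 to 0.181 in WT and below that in both, at 0.0930 in KO5 and 0.104 in KO4. Mgam to Vil1 was 0.145 to 0.247 in WT, below that in KO5 (0.130) and within it in KO4 (0.151). Sis to Vil1 was 0.304 to 0.425 in WT, just under that in KO5 (0.303) and far under it in KO4 (0.0929).

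**Figure D3:**
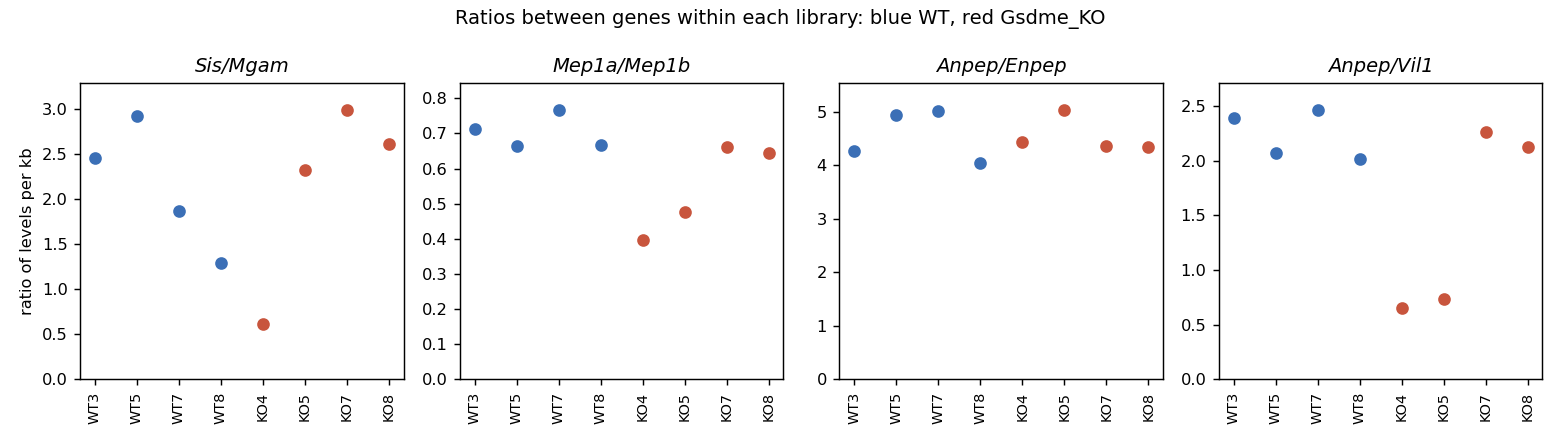
Ratios of levels per kb between pairs of genes in each library, blue for WT and red for Gsdme_KO, y axes from 0. The Anpep to Enpep ratio lies between 4.05 and 5.04 in all 8 libraries, while Mep1a to Mep1b and Anpep to Vil1 are lowest in KO4 and KO5.

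The spread of these genes was large when the low libraries KO4 and KO5 were included. Over the 8 libraries, the SD of the log2 level was 2.88 for Lct, 1.39 for Treh, 1.08 for Enpep, 1.05 for Anpep and 0.39 for Mgam, against a median of 0.26 over all genes tested. Within WT alone it was 1.33 for Lct and 0.62 for Alpi, against a median of 0.21 over all genes tested. It was near or below that median for Mep1a (0.25), Mep1b (0.22), Dpp4 (0.17) and Mgam (0.15). WT8 was the lowest WT library for 9 of the 10 (31.3% of all genes), with Alpi at 49.6% of the WT mean. Within WT, WT8 also had the highest summed level of the stroma and muscle marker list, 93047 against 67509 to 70268 in the other WT libraries. KO5 had 98795 and KO4 73017. The part of that list in the low values was not tested.

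Other hydrolases of the brush border were read from a list of 22 genes, of which 19 were tested and 0 passed in either direction. Among the 19, 15 had a negative and 4 a positive log2 fold change (median -0.32), and 8 had KO4 and KO5 below all other libraries (13.5% of all genes). Naaladl1, a dipeptidase-like enzyme of the ileum, had 23212 in KO5 and 13702 in KO4, with 47264 to 81764 in the remaining libraries. In KO5 and KO4, Mme, which encodes neprilysin, had 765 and 718 against 3093 to 6633, and Xpnpep2, the membrane aminopeptidase P, had 1410 and 806 against 4226 to 8932. Enpp7, the alkaline sphingomyelinase, had the lowest log2 fold change of the list (-2.76), with 30.04 and 7.37 against 433 to 2452. Not every hydrolase of the list followed. Lnpep and Erap1, which work inside cells, stayed between 1832 and 2084 and between 1652 and 2217 in all 8 libraries. Cpm had 490 in KO5 and 517 in KO4, within the 449 to 589 of WT. Asah2 had 4093 and 4371, within the 2719 to 8345 of WT. Tmprss2 had 2642 in KO4 and 4377 in KO5, the highest of all 8 libraries.

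Genes of the microvillus scaffold were also low in KO4 and KO5. Of 18 structural genes 0 passed the test, and all 18 had a negative log2 fold change (median -0.26). KO4 and KO5 were below all other libraries for 13 of the 18, against 13.5% of all genes. Their median difference from the WT mean was -0.61 log2 in KO4 and -0.53 in KO5, where that of the 10 hydrolases was -2.21 and -1.38. The lists overlapped gene by gene, since Mgam was at -0.69 in KO4 and Sis at -0.72 in KO5. Vil1 had 32051 in KO5 and 32151 in KO4, with 36518 to 54319 in the remaining libraries, and Cdhr2, a protocadherin linking microvillus tips, had 23978 and 19792 against 26909 to 40853. Larger gaps were seen for Pdzk1, a scaffold for apical transporters, with 1103 and 839 against 3553 to 6787, and for Cobl, an actin nucleator, with 1276 and 771 against 1733 to 3104. The difference between the 2 lists was not tested.

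General epithelial genes had a list mean near 0, with members that went both ways. Over a reference list of 7 (Epcam, Cdh1, Krt8, Krt18, Krt19, Cldn7 and Esrp1), the mean difference from WT was 0.02 log2 in KO7, -0.03 in KO8, 0.03 in KO5 and -0.05 in KO4. Krt8, a keratin of simple epithelia, had 102382 in KO5 and 85374 in KO4, with 84439 to 97499 in the remaining libraries. Epcam, an epithelial adhesion molecule, had 36133 and 34389 against 38894 to 50707, and Krt18, the keratin partner of Krt8, had 14934 and 13978 against 8435 to 10261. In all, 2 of the 7 had both libraries below all others (13.5% of all genes) and 1 of the 7 had both above (14.1%). Scaling every library to this list shifts all log2 fold changes by the same amount, which these list means fix in advance. The median of the 10 hydrolases went from -0.77 to -0.76, with 0 of 10 called (0% of all genes lower). The scaling therefore cannot tell how much epithelium each library held.

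**Figure D4:**
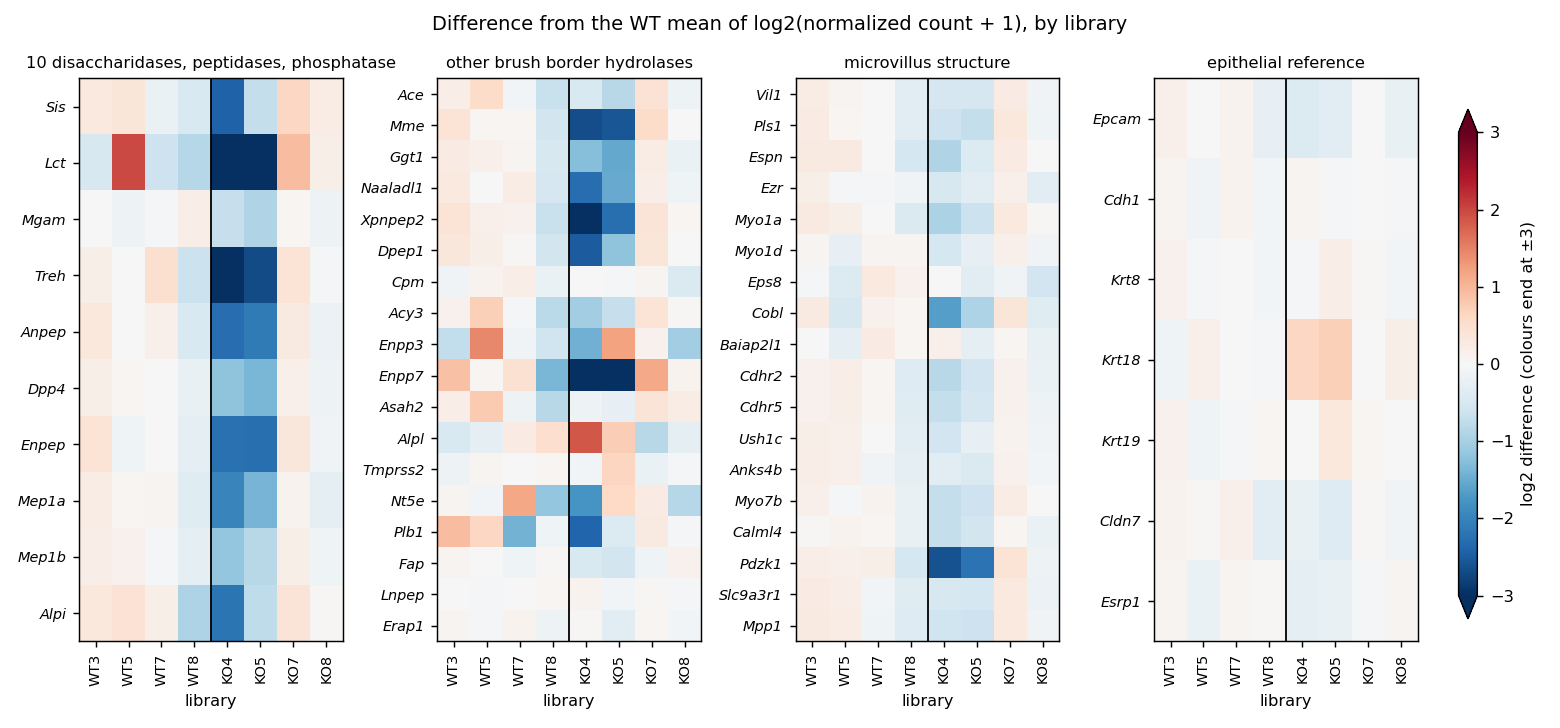
Difference of each gene from its WT mean on the log2(normalized count + 1) scale in each library, for the 10 genes, 18 of the 19 other brush border hydrolases tested, 18 microvillus genes and 7 epithelial reference genes; colours end at 3 in either direction. KO4 and KO5 are blue for the 10 genes, with Mgam palest in KO4 and Sis palest in KO5, and Pdzk1 is the darkest of the microvillus genes.

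Among 14 transcription factors of the enterocyte, 0 passed the test, and 10 had a negative and 4 a positive log2 fold change (median -0.14). Hnf4g, a partner of Hnf4a in brush border gene expression, had 1356 in KO5 and 677 in KO4, with 1829 to 2534 in the remaining libraries, and Maf had 4060 and 2703 against 5617 to 8841. Hnf4a had 12238 and 12084 against 12941 to 17025, and Cdx2 had 2773 and 1791 against 2716 to 4165. Of the 14, 4 had KO4 and KO5 both below all other libraries (13.5% of all genes). Prdm1 alone had both above (14.1% of all genes), with 647 in KO5 and 1241 in KO4 against 340 to 602. Gata6 had 1075 in KO5, within WT, and 1164 in KO4, the highest of all 8 libraries. Klf5 had 5090 in KO5 and 4921 in KO4, against 5054 to 5953 in WT. These values stand beside the hydrolases and their part in them was not tested.

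Markers of other cell types stood out in the same 2 libraries. All 9 B cell markers were higher in KO4 and KO5 than in any other library, as were 14.1% of all genes tested. Their summed level was 10513 and 5938 against 245 to 363, with Cr2 listed at 0 in WT7. For T cells 8 of 9 were higher in both, with sums of 3042 and 1854 against 608 to 1174. For myeloid cells 6 of 8 were, with sums of 9723 and 7083 against 3905 to 6737. The sums for stroma and muscle ran from 66218 to 98795, the highest being KO5, with KO4 at 73017. Those for endothelium ran from 2204 to 3382, the highest being KO4. Crypt and proliferation genes summed to 8816 and 9187 in KO4 and KO5, within the 7450 to 11856 of the others, and goblet and Paneth genes to 191779 and 345005, against 223529 to 315392. Below all WT libraries were 4 of the 10 crypt genes in KO4 (30.4% of all genes) and 1 of the 10 in KO5 (23% of all genes). These counts do not set the crypt list apart from all genes. Lgr5 had 59.9 in KO4 against 84.6 to 182 in the remaining libraries, whereas Top2a, at 2096, lay within WT. The mean difference of the crypt list from WT was -0.46 log2 in KO4 and -0.04 in KO5. Distal small intestine genes were low in the same libraries, with KO4 and KO5 both below all others for 5 of 8 (13.5% of all genes). The distal sums were 36759 and 50774 against 56480 to 130695. Distal genes had 7 of 8 negative log2 fold changes, and proximal ones 5 of 9, villus tip ones 5 of 9, villus base ones 5 of 7 and large intestine ones 5 of 5. No gene of any of these lists passed the test (smallest limma adjusted p = 0.849), and the part of cell composition in the hydrolase values was not tested.

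Outside the 10, the 5 tested genes whose centred log2 profile over the 8 libraries lay nearest to the mean profile of the 10 were Hes2, Amn, 2010106E10Rik, Naaladl1 and Pdzk1. Their root mean square differences were 0.125, 0.155, 0.161, 0.173 and 0.184 log2, against a median of 0.986 over all genes. Hes2, a basic helix-loop-helix repressor gene, had 125 in KO5 and 72.8 in KO4, with 233 to 479 in the remaining libraries. Amn encodes amnionless, which anchors the ileal vitamin B12 receptor, and had 396 and 233 against 1003 to 1653. Of the 10 themselves, Anpep lay closest to the mean profile (0.185) and Lct farthest (1.78), the mean profile including each of them. Lct weighs on that mean, at -6.68 log2 from its WT mean in KO4 and -4.43 in KO5, on 0 and 5 reads. The mean difference of the 10 was -2.39 in KO4 and -1.75 in KO5, where their median was -2.21 and -1.38. Which genes would lie nearest without Lct was not tested.

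KO4 and KO5 carried the lower means. Without both, a choice made with earlier results of these data known, the median log2 fold change of the 10 was 0.08, with 7 positive and 3 negative values from -0.08 (Mep1a) to 0.55 (Lct), and 0 of 10 called (0.00617% of all genes lower) or at an unadjusted p under 0.05 (1.71% lower). The intervals then ran from -0.35 to 0.34 for Dpp4, from -0.37 to 0.29 for Mgam and from -0.62 to 0.73 for Anpep, with 2 Gsdme_KO libraries left. Leaving out KO7 instead gave a median of -1.09, with an unadjusted p under 0.05 for 8 of the 10 (5.6% of all genes lower) and 0 called (smallest limma adjusted p = 0.428).

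**Figure D5:**
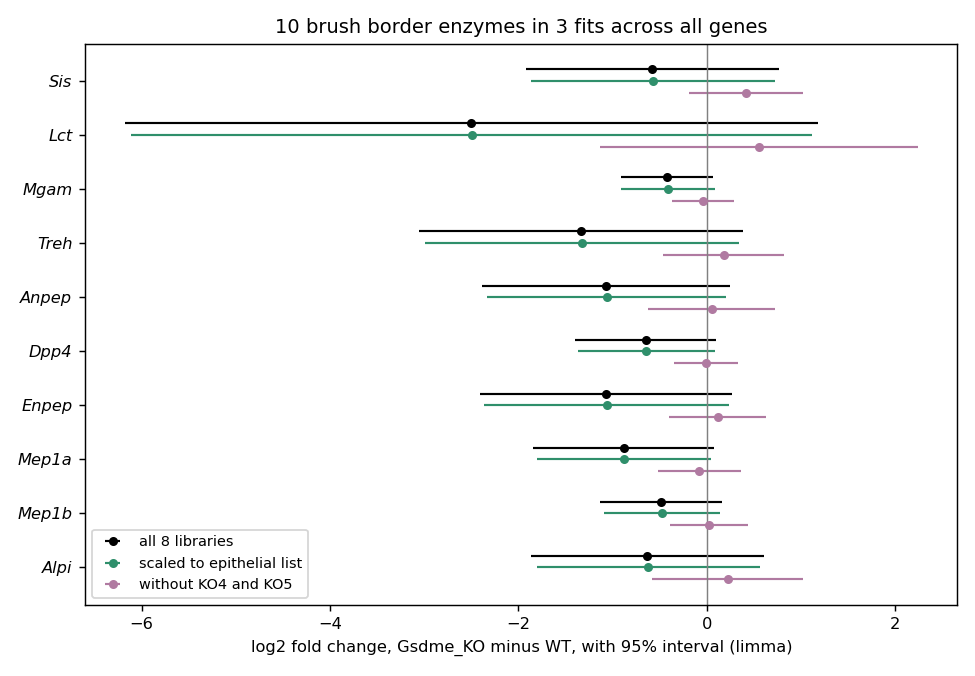
Log2 fold change (Gsdme_KO minus WT) of the 10 genes with 95% intervals in 3 limma fits: all 8 libraries, libraries scaled to the epithelial reference list, and without KO4 and KO5. All points lie below 0 in the first 2 fits and within 0.55 of 0 in the third, and every interval includes 0.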

How the data were processed

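Ileal RNA of 8 irinotecan-treated mice, 4 WT and 4 Gsdme_KO, was sequenced from poly(A)-selected, strand-specific libraries, per the labels' protocols. GRCm38, featureCounts, Subread, HISAT2, SAMtools and DESeq2 are listed, with no roles, in the submitters' processing notes. Versions, annotation and strand setting were not given in the sources used here. In the deposited table the values are a signal, the reads of a gene over the size factor of its library. Dividing out the steps gave whole reads for 100% of values in each library (tolerance 0.01 reads), and recomputed size factors equalled the divisors. Header numbers differ from the labels' numbers, so columns were assigned by genotype only.

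Genotypes were compared by limma-trend (R 4.3.3, limma 3.58.1) after adding a pseudocount of 1 and taking log2, for 16352 genes with a mean of at least 10, adjusted by Benjamini-Hochberg over all of them. The pseudocount understates changes of low genes. Alternatives varied the pseudocount, the filter, the scaling, the weights, the test and the libraries. Recovered reads were also tested with edgeR 4.0.16, which called 1 gene, and DESeq2 1.42.0, which called 9. The tests were checked on simulated data. Positions and exon lengths are from GENCODE M21 (GRCm38) and promoter windows from RefSeq (GRCm38.p6). The 10 members, 17 gene lists, tests and alternatives were chosen with earlier results of these data known. Genes named are the members, tested hydrolases of the second list, called or else the 2 most abundant genes of other lists, and the 5 nearest profiles. Others, among them single transcription factors and markers, were chosen after their values were seen. Values of 2 listed genes are not reported here.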

Additional observations from a re-analysis of the deposited data

Results flagged for a closer look

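Lct in WT5 stood far from the other libraries of its genotype. It had 403 normalized counts, and its gap to the next WT library took 95.1% of the WT range, above Dixon's 95% limit of 82.9% for 4 samples. In all, 22 groups of 4 were checked in this way, and chance alone picks out about 1 in 20.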

How the results depend on the processing

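Under all 21 alternatives 0 of the 10 hydrolases were called (smallest adjusted p = 0.428, without KO7), and 202 of 210 values kept their negative sign. The 8 that reversed were Sis without KO4 (0.038) and, without KO4 and KO5 together, Sis (0.42), Lct (0.55), Treh (0.18), Anpep (0.050), Enpep (0.11), Mep1b (0.025) and Alpi (0.22). With 1 library left out, the log2 fold change ran from -0.977 to 0.038 for Sis, -3.65 to -1.11 for Lct, -0.58 to -0.26 for Mgam, -1.91 to -0.78 for Treh, -1.52 to -0.67 for Anpep, -0.91 to -0.41 for Dpp4, -1.53 to -0.67 for Enpep, -1.21 to -0.51 for Mep1a, -0.71 to -0.26 for Mep1b and -0.97 to -0.11 for Alpi. Each lowest value was without KO7, and each highest without KO4, or without KO5 for Mgam, Dpp4 and Enpep. The cause was not tested. The median of the 10 was -0.43 with array weights, -0.57 by edgeR, -0.49 without KO4 and -0.97 without KO8 or WT8. Over all genes, DESeq2 called 9, and leaving out 1 library gave between 0 and 1 calls, 0 in every case but WT8. The Gsdme difference ran from -3.71 to -2.88 with each library left out. No paired analysis was possible because the columns do not carry the replicate numbers of the labels. Precision was limited by 4 mice a group, and Lct in KO4 and KO5 rests on 0 and 5 reads.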
